A study of Mus musculus with 2 samples.

Results

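The genes described here are 10 transcription factors of mesenchymal cells, taken by symbol from the 26100 genes listed in both libraries of the series. They are the basic helix-loop-helix factors Twist1, Twist2 and Tcf21, the homeobox factors Prrx1 and Prrx2, the odd-skipped zinc finger factors Osr1 and Osr2, the Snail zinc finger factors Snai1 and Snai2, and Zeb2. The question was which of the 10 members were low and which were kept when fibroblasts had been turned into muscle progenitors. The series holds 2 single-cell RNA-seq libraries, both of genotype Tg:Pax7-nGFP/C57BL6;DBA2. In the first, mouse embryonic fibroblasts (MEF) were grown in MEF media. The second holds induced myogenic progenitor cells (iMPC), made from such fibroblasts with MyoD and the agents that the labels abbreviate F/R/C and kept in F/R/C media. The design text speaks of a stable iMPC clone, so the iMPC library stands for the cells of 1 culture and not for the method in general. Each condition is 1 library, so no difference below has a replicate check or a test, and every interval covers counting error only.

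Mesenchymal factors of these families keep connective tissue cells in a motile, matrix-producing state. Twist, Snail and Zeb proteins bind E-boxes, the DNA sites that MyoD and other muscle basic helix-loop-helix factors also use, and the Snail and Zeb proteins are best known as repressors of epithelial genes. Twist proteins can block MyoD, Prrx factors mark limb and craniofacial mesenchyme, Osr factors mark limb connective tissue and kidney and palate mesenchyme, and Tcf21 marks fibroblasts of the heart, lung and kidney.

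The sequences just upstream of the Twist pair and of Snai1 are shown because Twist1 and Twist2, close relatives, parted in the progenitors, and because Snai1 was the member kept most evenly from fibroblasts to Myog-expressing cells. Each is the 250 bases before the RefSeq start on GRCm38.p6, on the strand of the gene, with capitals on an E-box (CANNTG, the same on both strands). The windows are chr12:33957421-33957670 (plus strand) for Twist1, chr1:91801211-91801460 (plus strand) for Twist2 and chr2:167537945-167538194 (plus strand) for Snai1.
Twist1: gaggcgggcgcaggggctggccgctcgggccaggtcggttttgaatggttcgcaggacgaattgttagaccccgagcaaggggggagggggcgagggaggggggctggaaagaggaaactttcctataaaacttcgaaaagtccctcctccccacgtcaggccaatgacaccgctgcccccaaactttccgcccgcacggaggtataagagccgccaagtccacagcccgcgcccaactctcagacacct
Twist2: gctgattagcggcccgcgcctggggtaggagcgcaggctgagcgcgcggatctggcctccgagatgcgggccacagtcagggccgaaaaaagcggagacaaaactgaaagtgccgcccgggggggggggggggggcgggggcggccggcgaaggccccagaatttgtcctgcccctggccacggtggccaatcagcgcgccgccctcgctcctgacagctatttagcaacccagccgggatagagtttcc
Snai1: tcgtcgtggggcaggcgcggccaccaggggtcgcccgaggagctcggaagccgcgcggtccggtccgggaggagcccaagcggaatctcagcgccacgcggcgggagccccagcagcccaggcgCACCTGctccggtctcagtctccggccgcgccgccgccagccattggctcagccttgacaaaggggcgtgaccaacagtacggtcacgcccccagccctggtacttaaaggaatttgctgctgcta
The Snai1 window holds 1 E-box, CACCTG, which is CAGGTG read on the other strand, and the windows of Twist1 and Twist2 hold none. RefSeq promoters were matched for 7 of the 10 members. None of the windows of Prrx1, Prrx2 and Tcf21, and none of the 4 windows listed for Zeb2, held CANNTG. The motif was found in 66.2% of 32851 promoter windows of this length, CAGGTG (either strand) in 17.2% and CAGCTG, a subset of CANNTG favoured by MyoD, in 13% of them. The absence of these letters from a window says only that they are not in those bases. GC content was 62.4% in the Twist1 window, 68.8% in that of Twist2 and 70% in that of Snai1, against a median of 52.4% over all windows.

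By the GENCODE annotation on GRCm38, Twist1 lies at chr12:33957671-33959829, Twist2 at chr1:91801461-91848028, Prrx1 at chr1:163245119-163313710, Prrx2 at chr2:30834972-30881251, Osr1 at chr12:9570116-9581500, Osr2 at chr15:35296098-35303305, Snai1 at chr2:167538195-167542814, Snai2 at chr16:14705852-14709385, Zeb2 at chr2:44983632-45117395 and Tcf21 at chr10:22817281-22820174. All 10 are protein-coding genes. Osr1, Prrx1, Tcf21, Twist2 and Zeb2 each overlap an annotated gene on the opposite strand that is not a row of the matrices. Whether strand was used in counting is not given in the sources used here. If it was not, reads of such partners could be among those counted for these 5 members, which was not tested.

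The MEF library kept 6043 cells with a median of 18929 unique molecular identifiers (UMIs, 1 per captured RNA molecule), and the iMPC library 9349 cells with a median of 20846. The 2 libraries had 16 kept barcodes in common. The iMPC cells were split by counts of 4 genes that are not members. The Pax7-positive group (at least 1 UMI of Pax7, the satellite cell factor, and 0 of Myog) held 2180 cells with a median of 18729.5 UMIs. The Myog-high group (at least 5 UMIs of Myog, the differentiation factor myogenin, and at most 1 of Ckm) held 1724 cells with a median of 23857.5. The Ckm-high group (at least 5 UMIs of Ckm, muscle creatine kinase) held 1037 cells with a median of 42148. The Dcn-high group (at least 5 UMIs of Dcn, the fibroblast proteoglycan decorin) held 553 cells with a median of 18064. The remaining 4001 cells, 42.8%, met none of the definitions. The groups are ranges of a count and not cell types: 110 cells were both Pax7-positive and Dcn-high, and 18 of the Myog-high and 18 of the Ckm-high cells were also Dcn-high. All 6 fibroblast markers were at 10 CPM (counts per 1000000 UMIs of a group) or more in MEF and in the Dcn-high group, summing to 5480 and 2858 CPM, against 549.8, 149 and 64.3 CPM in the Pax7-positive, Myog-high and Ckm-high groups. Satellite cell markers summed to 338 CPM in the Pax7-positive group and 7.04 CPM in MEF, where Myf5 and Calcr were at 0. Of the 6 satellite cell markers, Chodl and Calcr were under 1 CPM in Pax7-positive cells as well as in MEF. Both were at 0 in Myog-high and Dcn-high cells. Myocyte markers summed to 43408 CPM in the Ckm-high group and 95.8 CPM in MEF. Smooth muscle or pericyte markers summed to 9895 CPM in MEF and to between 435.5 and 868 CPM in the 4 iMPC groups. That list was split. Acta2, Myh11, Tagln and Cnn1 were at least 4-fold lower than in MEF in all 4 iMPC groups. Rgs5 was at least 4-fold higher in the Pax7-positive, Myog-high and Dcn-high groups and at no less than 1/2 of the MEF level in Ckm-high cells. Endothelial, immune, epithelial and adipocyte markers summed to 3.39 CPM or less in each of the 5 groups. Chondrocyte markers summed to between 22.2 and 78.4 CPM, neuron markers to between 25.4 and 76.6 CPM and glial markers to between 1.69 and 13.0 CPM, the last in Dcn-high cells with Sox10 at 0. Myocyte markers also summed to 3853 CPM in Dcn-high and 818 CPM in Pax7-positive cells. Their part in the values of those groups was not tested. Dcn is itself a fibroblast marker here, Pax7 a satellite cell marker and Ckm a myocyte marker. The sums of these lists are therefore partly set by how the groups were chosen. In Dcn-high cells Dcn was at least 4-fold higher than in MEF, while Col1a1 and Col1a2 were at least 4-fold lower. Lum, Pdgfra and Thy1 were there at no less than 1/2 of the MEF level.

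In the Pax7-positive cells Twist2 was far below its fibroblast level and Zeb2 far above it, and as a list the members stood about where all genes did. Twist2 alone was at least 4-fold below its MEF level, 1 of the 9 members that reached 1 CPM in either group, while 8.82% of the 12754 genes past the same level filter were that far below. Of the 9, 7 were at no less than 1/2 of the MEF level (Twist1, Prrx1, Prrx2, Osr1, Osr2, Snai1 and Zeb2), as were 78.9% of all genes. Zeb2 was at least 4-fold higher, as were 9.28% of all genes. The members' median log2 ratio to MEF was -0.01, against -0.07 over all genes. These counts and the median are near the background and so are not a result about the list in this group. In Myog-high cells 4 of 9 were at least 4-fold lower (Twist1, Twist2, Osr2 and Snai2; background 14.4%) and 4 were at no less than 1/2 of the MEF level (Prrx1, Prrx2, Snai1 and Zeb2; background 70.9%), with a median of -1.13 against -0.24. In Ckm-high cells 5 of 9 were at least 4-fold lower (the same 4 and Osr1; background 19%) and 2 were at no less than 1/2 of the MEF level (Prrx2 and Zeb2; background 61.8%), with a median of -2.47 against -0.60. In Dcn-high cells none was 4-fold lower (background 4.94%) and 8, all but Snai2, were at no less than 1/2 of the MEF level (background 85.2%), with a median of 1.10 against -0.07. Zeb2 was also the 1 member at least 4-fold higher in the Myog-high (background 8.99%) and Dcn-high (background 9.86%) groups, and no member reached that fold in the Ckm-high group (background 9.54%).

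**Figure D1:**
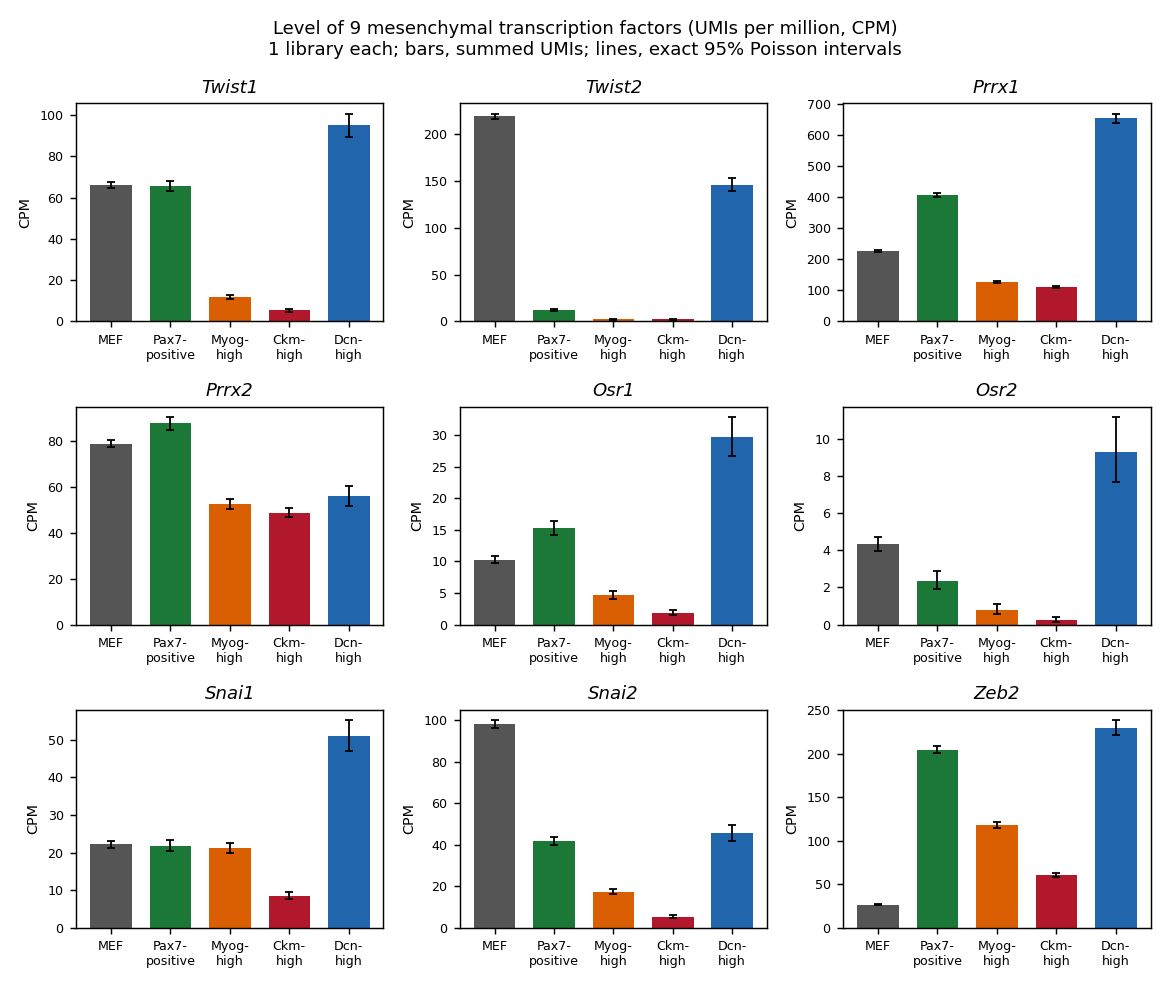
Level of each of the 9 detected members in MEF and in the 4 iMPC groups, as CPM on axes that start at 0, 1 panel per gene; bars are summed UMIs of 1 library each and black lines exact 95% Poisson intervals. Twist2 is high in the MEF and Dcn-high bars only (219 and 146 CPM), whereas Zeb2 is lowest in MEF (26.6 CPM).

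Twist1 and Twist2 encode near relatives that can bind muscle basic helix-loop-helix factors and hold them inactive. Twist1 was at 66.2 CPM in MEF, 65.6 in Pax7-positive, 11.8 in Myog-high, 5.30 in Ckm-high and 95.04 in Dcn-high cells. The Pax7-positive and MEF levels did not differ beyond counting error (log2 ratio -0.01, 95% interval -0.07 to 0.05), and the lower levels were those of the differentiating groups, 5.59-fold below MEF in Myog-high and 12.5-fold in Ckm-high cells. The sign of the Pax7-positive ratio turned with the scaling, up to 0.18 when mitochondrial and ribosomal protein genes were left out of the total. Twist2 was at 219 CPM in MEF, 12.0 in Pax7-positive, 2.14 in Myog-high, 2.22 in Ckm-high and 146 in Dcn-high cells. It was 18.3-fold lower in Pax7-positive cells than in MEF (log2 ratio -4.20, -4.32 to -4.07), while the Dcn-high cells held 0.666 of the MEF level. Counted at a common depth of 5000 UMIs per cell (which leaves out 284 shallower MEF cells and no iMPC cell), a Twist2 UMI was found in 57.7% of MEF, 3.58% of Pax7-positive, 0.522% of Myog-high, 0.482% of Ckm-high and 42.7% of Dcn-high cells. Without that thinning the Twist2 shares were 83.8, 8.12, 2.20, 2.99 and 74.7%. For Twist1 the shares at 5000 UMIs were 26.0, 22.8, 4.47, 2.03 and 34.5%, in the same order.

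The lowest Twist2 values were set by few cells. The Myog-high group held 99 Twist2 UMIs, with up to 32 in a cell, and the Ckm-high group 108, with up to 19 in a cell. Without the 18 Dcn-high cells of each group, Twist2 was at 1.05 CPM in Myog-high and 0.631 CPM in Ckm-high cells, against 2.14 and 2.22 CPM with them. Barcodes of 1 to 100 UMIs in the iMPC library held Twist2 at 29.9 CPM, and if such RNA made up 10% of a cell's UMIs it would add 2.99 CPM and give a UMI in 1.48% of cells at 5000 UMIs. Both values are above those measured in the Myog-high and Ckm-high groups, with or without the Dcn-high cells. The same assumption would add 2.92 CPM of Twist1, below its 5.30 CPM in Ckm-high cells. Barcodes of 200 to 600 UMIs, taken as 2.06% of a cell's UMIs, would add 0.147 CPM of Twist2, below every group's value. Both shares are assumptions, and the part of free RNA in the Twist2 values was not tested.

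Twist2 in the Pax7-positive group was carried by the cells that also held Dcn. In the 1931 Pax7-positive cells with 0 Dcn UMIs it was at 2.45 CPM (95% interval 1.98 to 2.99), 89.7-fold below MEF and between the 0.147 and 2.99 CPM that the assumed shares of free RNA would add. In the 139 cells with 1 to 4 Dcn UMIs it was at 36.4 CPM (29.8 to 44.1). In the 110 cells with 5 or more it was at 143 CPM (128 to 159), 1.53-fold below MEF. Of the 527 Twist2 UMIs of the group, 95 lay in the cells without Dcn. Scrublet, a doublet caller, marked 1 of those 110 cells (0.909%), against 1.33% of Pax7-positive, 7.02% of Myog-high, 7.91% of Ckm-high and 7.41% of Dcn-high cells, and their median UMI count was 18063.5. Whether some of the 110 barcodes hold 2 cells was not tested further.

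Over all iMPC cells Twist2 was higher the more Dcn UMIs a cell held. It was at 2.92 CPM in the 8244 cells with 0 Dcn UMIs, 30.0 in 552 cells with 1 to 4, 106 in 310 cells with 5 to 19, 183 in 232 cells with 20 to 99 and 365 in 11 cells with 100 or more. Prrx1 followed from 238 to 919 CPM over the same bands, Osr1 from 8.76 to 39.1 and Osr2 from 1.39 to 16.3. Prrx2 was lower in the upper bands, at 70.7, 70.9, 62.6, 49.2 and 32.6 CPM. Just outside and just inside the threshold of the Dcn-high group, cells with 3 to 4 and with 5 to 6 Dcn UMIs had 70.0 and 91.9 CPM of Twist2, so the threshold cut through a gradient. In the 230 Dcn-high cells with no UMI of Pax7 or Myog, Twist2 was at 166 CPM, near the 143 CPM of the Dcn-high cells with Pax7.

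**Figure D2:**
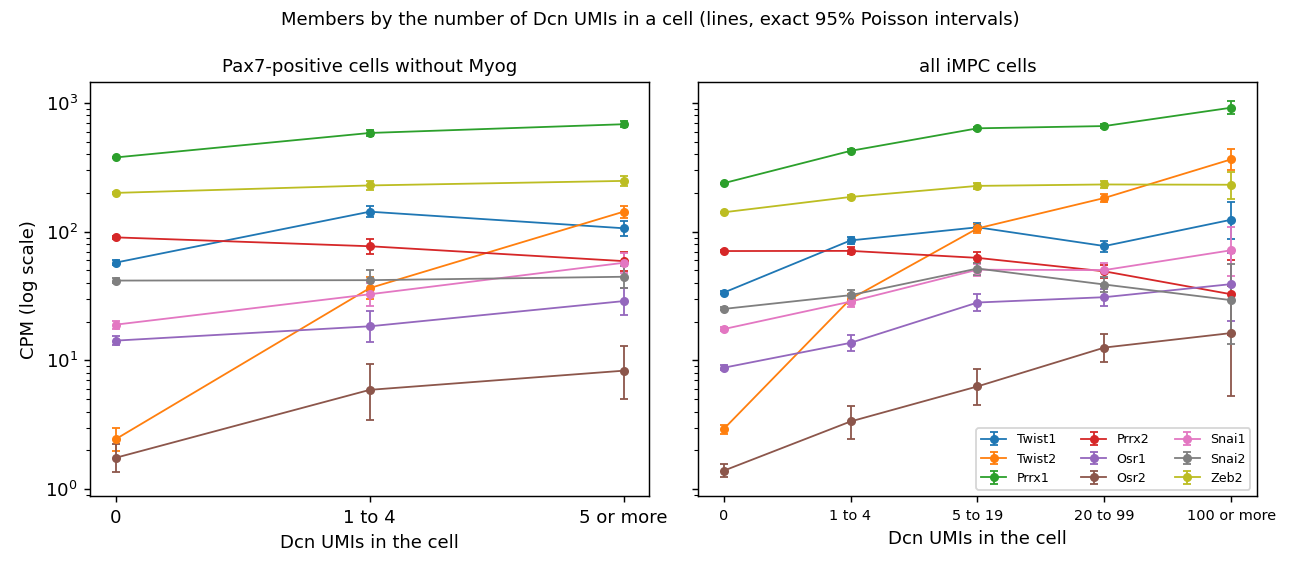
CPM (log axis) of the 9 members by the number of Dcn UMIs in a cell, in Pax7-positive cells (left) and in all iMPC cells (right); points are summed UMIs of the cells of a band and lines exact 95% Poisson intervals. Twist2 spans 2.45 to 143 CPM on the left while Snai2 stays between 41.7 and 44.6.

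The other members depended less on Dcn within the Pax7-positive group. Twist1 was at 57.5 CPM in cells without Dcn, 143 in those with 1 to 4 UMIs and 106 in those with 5 or more, so it was highest in the middle band. Snai1 was at 18.9, 32.6 and 57.3 CPM in the same 3 bands and Osr2 at 1.75, 5.90 and 8.31. Zeb2 was at 200.1, 229 and 248 CPM, and Prrx1 at 377, 585 and 684. Snai2 was level, at 41.7, 42.0 and 44.6 CPM, and Prrx2 was lower with more Dcn, at 90.3, 77.0 and 59.0 CPM. In the cells without Dcn, Osr2 was 2.47-fold below MEF, past the 2-fold line that it did not cross in the whole group.

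Prrx1 and Prrx2 encode paired-related homeobox factors of skeletal and limb mesenchyme. Prrx1 was at 227 CPM in MEF, 407 in Pax7-positive, 128 in Myog-high, 111 in Ckm-high and 654 in Dcn-high cells. It was thus 1.79-fold above MEF in Pax7-positive cells and 2.88-fold in Dcn-high cells, and was still found in 37.9% of Myog-high and 39.7% of Ckm-high cells at 5000 UMIs (74.5 and 89.6% unthinned), against 60.8% of MEF, 80.5% of Pax7-positive and 93.7% of Dcn-high cells. Free RNA at the 10% share would give a Prrx1 UMI in 7.64% of cells. Prrx2 was at 78.9 CPM in MEF, 87.8 in Pax7-positive, 52.5 in Myog-high, 48.9 in Ckm-high and 55.9 in Dcn-high cells. The Myog-high and Dcn-high values did not differ beyond their intervals (50.4 to 54.6 and 51.8 to 60.3 CPM). Gm37644, a gene model without a settled type in the annotation, overlaps Prrx1 on the same strand and held 391 UMIs in MEF and 1099 in iMPC cells.

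Osr1 and Osr2 encode factors of connective tissue, joint and palate mesenchyme. Osr1 was at 10.3 CPM in MEF, 15.3 in Pax7-positive, 4.70 in Myog-high, 1.85 in Ckm-high and 29.7 in Dcn-high cells. Osr2 was at 4.33 CPM in MEF, 2.36 in Pax7-positive, 0.801 in Myog-high, 0.226 in Ckm-high (11 UMIs in 1037 cells) and 9.28 in Dcn-high cells. Both were therefore highest in Dcn-high cells, 2.88-fold and 2.14-fold above MEF, and lowest in Ckm-high cells. At 5000 UMIs an Osr1 UMI was found in 4.60% of MEF and 13.6% of Dcn-high cells, and an Osr2 UMI in 2.48% and 6.33%, so most cells of each group showed neither at this depth. Tcf21, a regulator of visceral and cardiac fibroblasts, had 0 UMIs in every kept cell of both libraries and in both classes of low-count barcodes. That count allows a UMI in up to 0.0521% of MEF cells at 5000 UMIs, 0.138% of Pax7-positive and 0.542% of Dcn-high cells. It was 1 of 5920 genes with no UMI in either library.

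Snai1 and Snai2 encode Snail-type repressors that bind E-boxes, and Zeb2 a larger zinc finger repressor of the same sites. Snai1 was at 22.2 CPM in MEF, 21.8 in Pax7-positive, 21.2 in Myog-high, 8.53 in Ckm-high and 51.0 in Dcn-high cells. The first 3 of these differed by less than their counting intervals, and the Ckm-high value was 2.60-fold below MEF. The sign of both small ratios to MEF turned with the scaling (Snai1 in Pax7-positive cells ranged from -0.23 to 0.17 over the settings). Snai2 was at 98.2 CPM in MEF, 41.8 in Pax7-positive, 17.4 in Myog-high, 5.41 in Ckm-high and 45.5 in Dcn-high cells. Snai2 was the 1 detected member below 1/2 of its MEF level in all 4 iMPC groups, by 2.35-fold in Pax7-positive, 5.63-fold in Myog-high, 18.2-fold in Ckm-high and 2.16-fold in Dcn-high cells. In Dcn-high cells it crossed to no less than 1/2 of the MEF level under 3 settings, at a log2 ratio of -0.97 in cells of exactly 1 group. Zeb2 was at 26.6 CPM in MEF, 204 in Pax7-positive, 118.06 in Myog-high, 60.6 in Ckm-high and 229.5 in Dcn-high cells. It was above MEF in all 4 iMPC groups, 7.69-fold in Pax7-positive, 4.44-fold in Myog-high, 2.28-fold in Ckm-high and 8.64-fold in Dcn-high cells, and at 5000 UMIs a Zeb2 UMI was found in 11.1% of MEF and 60.1% of Pax7-positive cells (35.2 and 93.8% unthinned). Free RNA at the 10% share would add 9.62 CPM of Zeb2, less than the difference from MEF in every group. Zeb2os, an antisense transcript at the same locus, is among the opposite-strand genes named above, and whether its reads were counted for Zeb2 was not tested.

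**Figure D3:**
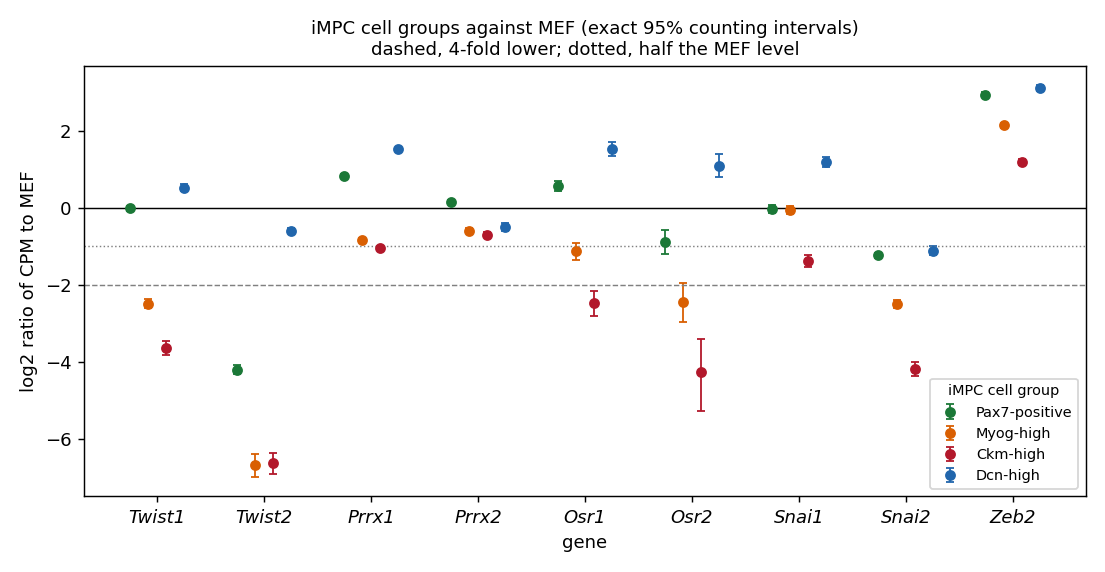
Log2 ratio of CPM to MEF for the 9 detected members in the 4 iMPC groups, with exact 95% counting intervals; the dashed line marks 4-fold lower and the dotted line 1/2 of the MEF level. Zeb2 lies above 0 in all 4 groups, Snai2 below the dotted line in all 4, and Twist2 spans from -6.68 in Myog-high to -0.59 in Dcn-high cells.

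Within the iMPC library the members were ordered along the myogenic groups, here over the 5202 cells that met exactly 1 definition. From Pax7-positive (2070 cells) to Myog-high (1706 cells) Twist1 stood at 63.4 and 11.3 CPM (5.63-fold) and Twist2 at 4.79 and 1.05 CPM (4.55-fold), folds whose intervals overlap, and the Snai1 values of 19.9 and 21.0 CPM did not differ beyond counting error (log2 ratio -0.08, -0.22 to 0.06). From Myog-high to Ckm-high (1019 cells) Snai2 stood at 17.1 and 5.09 CPM (3.37-fold) and Snai1 at 21.0 and 8.31 (2.53-fold). Osr2 stood at 0.746 and 0.189 CPM (3.94-fold), Osr1 at 4.28 and 1.66 (2.57-fold) and Twist1 at 11.3 and 4.88 (2.31-fold). Over the same step Prrx1 (122 and 105 CPM) differed by 1.16-fold and Prrx2 (52.4 and 48.9 CPM) by 1.07-fold, and Zeb2 stood at 117 and 58.8 CPM. Between Pax7-positive and Dcn-high cells (407 cells) the widest gap was that of Twist2, 4.79 against 163 CPM or 34.1-fold, followed by Osr2 at 2.04 against 11.0 CPM or 5.40-fold. Snai2 (41.7 and 50.3 CPM) differed by 1.21-fold there and Zeb2 (202 and 241 CPM) by 1.19-fold. The groups differ in depth and in ribosomal protein UMIs (21.9% in MEF, 33.2% in Pax7-positive and 24.8% in Ckm-high cells), and the part of these in the ratios was not tested beyond the scalings given in the closing section.

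The balance within related pairs differed between the groups. A UMI tags 1 RNA molecule whatever its length, but capture can differ from gene to gene, so the shares are compared between groups and not read as protein balance. Twist1 made up 23.2% (95% binomial interval 22.7 to 23.6) of the Twist UMIs in MEF, 84.6% (83.3 to 85.8) in Pax7-positive, 84.7% in Myog-high, 70.5% in Ckm-high and 39.4% in Dcn-high cells. In Pax7-positive cells without Dcn it was 95.9%, and in those with 5 or more Dcn UMIs 42.6%. Snai1 made up 18.4% of the Snail pair in MEF, 34.3% in Pax7-positive, 54.9% in Myog-high, 61.2% in Ckm-high and 52.9% in Dcn-high cells. Prrx1 ranged from 69.4% of its pair in Ckm-high to 92.1% in Dcn-high cells, with 74.2% in MEF, and Osr1 from 70.4% in MEF to 89.1% in Ckm-high cells. The Twist and Snail pairs thus had a different majority gene in MEF and in at least 2 iMPC groups, and the Prrx and Osr pairs had the same one in all 5.

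**Figure D4:**
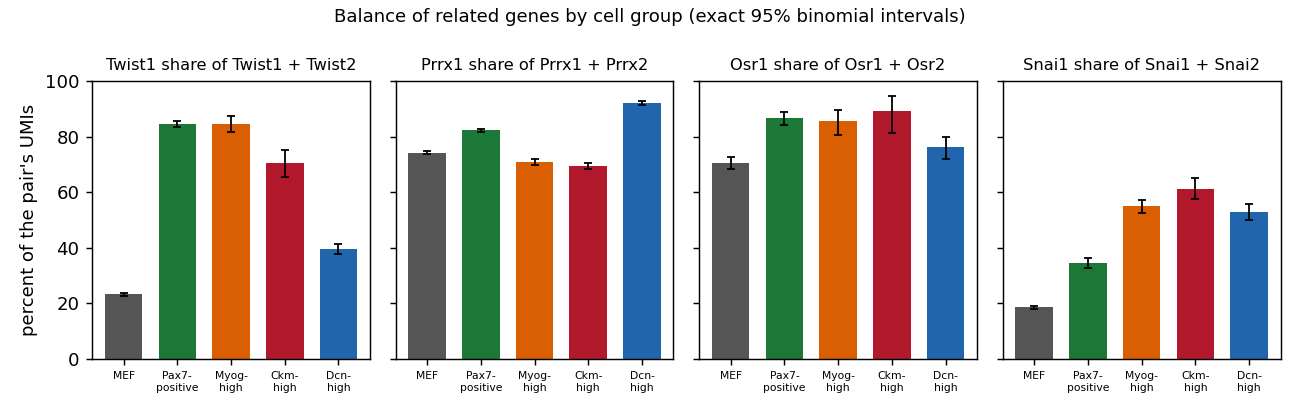
Share of the first gene in the UMIs of 4 related pairs, in percent on axes from 0 to 100, for MEF and the 4 iMPC groups, with exact 95% binomial intervals. Twist1 passes from 23.2% in MEF to 84.6% in Pax7-positive cells, and Snai1 from 18.4% in MEF to 61.2% in Ckm-high cells.

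Within the Pax7-positive group Twist1, Twist2, Snai1 and Osr1 were lower in cells with proliferation transcripts. At 5000 UMIs, 1126 of these cells had a UMI of Mki67 or Top2a, both made by dividing cells, and 1054 had none. Twist1 was at 44.4 CPM in the cells with such a UMI and 97.0 in those without (log2 ratio -1.13, -1.35 to -0.91), and Snai1 at 12.3 and 37.2 CPM (-1.60, -2.02 to -1.20). Twist2 was at 3.37 and 18.0 CPM (-2.42, -3.21 to -1.70) and Osr1 at 13.5 and 22.4 CPM (-0.73, -1.17 to -0.30). Dcn itself was at 19.2 and 109 CPM in the same cells, so the split was repeated in Pax7-positive cells with 0 Dcn UMIs. There Twist1 was at 41.6 CPM in 1054 cells with and 83.7 in 877 cells without a proliferation UMI (-1.01), and Snai1 at 11.2 and 33.5 (-1.58). Twist2 was at 1.33 and 4.79 CPM there (-1.85, -3.33 to -0.56), from 7 and 21 UMIs, and Osr1 at 12.5 and 20.5 CPM (-0.71). For Osr2 the interval took in 0 in both sets of cells. Snai2 (40.9 and 37.6 CPM) and Prrx2 (87.4 and 79.9 CPM) did not differ beyond counting error in the whole group, and Prrx1 (352 and 472 CPM, log2 ratio -0.42) and Zeb2 (192 and 226 CPM, -0.23) were a little lower. In MEF, 547 cells with and 5212 without such a UMI had 75.0 and 60.9 CPM of Twist1 and 24.5 and 23.1 CPM of Snai1, so neither was lower in the cells with it. Twist2 was at 184 and 213 CPM there (-0.21, -0.35 to -0.08), and Osr1 at 13.2 and 10.4. Prrx2 was also lower in the MEF cells with such a UMI, at 64.7 and 86.7 CPM (-0.42, -0.65 to -0.20). Twist1 (0.30, 0.08 to 0.51) and Prrx1 (0.19, 0.07 to 0.30) were a little higher in them. For Osr1, Osr2, Snai1, Snai2 and Zeb2 in MEF the interval took in 0.

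**Figure D5:**
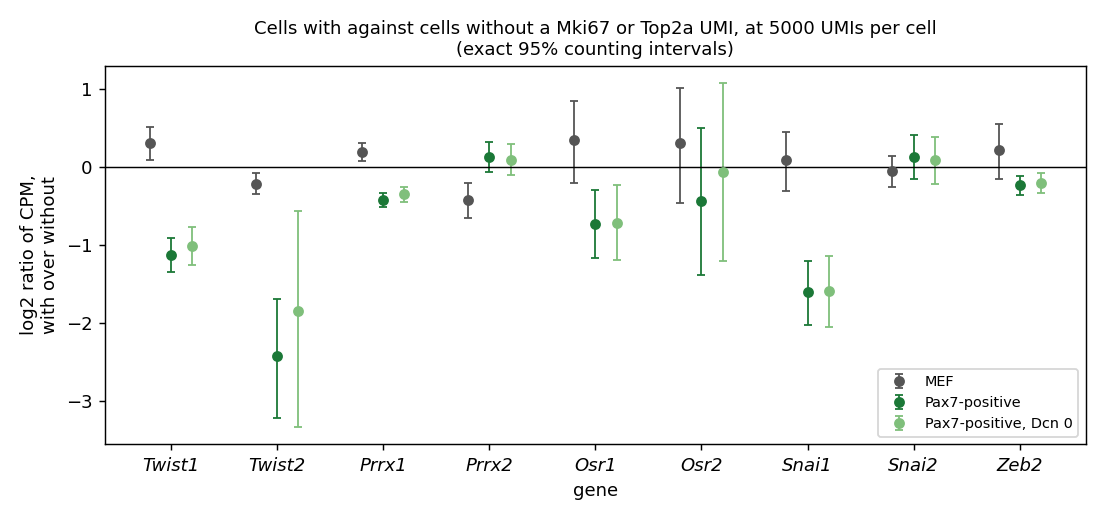
Log2 ratio of CPM between cells with and without a Mki67 or Top2a UMI at 5000 UMIs per cell, for the 9 detected members in MEF, in Pax7-positive cells and in Pax7-positive cells without Dcn, with exact 95% counting intervals. In Pax7-positive cells Twist2 lies at -2.42, Snai1 at -1.60 and Twist1 at -1.13, and in MEF these 3 lie at -0.21, 0.08 and 0.30.

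Twist1, Twist2 and Snai1 were also lower in cells with more Pax7 UMIs. In Pax7-positive cells without Dcn, Twist1 was at 71.1 CPM in 763 cells with 1 Pax7 UMI, 52.6 in 967 cells with 2 to 4 and 37.8 in 201 cells with 5 or more. Twist2 was at 3.90, 1.75 and 1.05 CPM (55, 35 and 5 UMIs) in the same bands. Snai1 was at 21.7, 18.0 and 14.9 CPM, Snai2 at 37.9, 43.1 and 46.9 and Zeb2 at 204, 197 and 199.9. Median UMI counts were 17456, 19358 and 21680, so depth moved with the bands, and its part was not tested. Just outside the group, the 1420 cells with neither a Pax7 nor a Myog UMI had 91.7 CPM of Twist1 and 43.97 CPM of Twist2. Those cells were not limited to 0 Dcn UMIs, unlike the bands above. Without that limit, the 889 cells with 1 Pax7 and no Myog UMI had 80.7 CPM of Twist1 and 16.6 of Twist2. Of the 1079 Twist2 UMIs of the 1420 cells, 700 lay in the 230 that were Dcn-high. At the Myog threshold, Twist1 was at 31.0 CPM in cells with 3 to 4 UMIs and 26.6 in cells with 5 to 6. At the Ckm threshold it was at 8.97 CPM with 3 to 4 UMIs and 6.19 with 5 to 6. For Twist1, neighbouring cells on both sides were thus closer to each other than the groups were. This did not hold for Twist2 at the Ckm threshold, with 1.70 and 3.40 CPM from 15 and 22 UMIs. At the Myog threshold Twist2 was at 7.56 and 2.48 CPM, from 55 and 7 UMIs.

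Counted per cell at 5000 UMIs, a mean of 2.35 members was detected in MEF, 2.36 in Pax7-positive, 1.23 in Myog-high, 0.944 in Ckm-high and 3.16 in Dcn-high cells. No member was detected in 7.85% of MEF, 3.90% of Pax7-positive, 25.1% of Myog-high, 32.9% of Ckm-high and 0.904% of Dcn-high cells. Twist1 and Prrx1 were found together in 443 Pax7-positive cells where independence would give 401, and 25.3% of the cells with Prrx1 had Twist1 against 12.9% of those without. In MEF the same pair was found in 970 cells where independence would give 909.5. Twist2 and Prrx1 were found together in 2090 of 5759 MEF cells and in 75 of 2180 Pax7-positive cells. Cells of 1 library share their source, so these counts describe the libraries only.

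MEF cells were also split by whether they held a UMI of a posterior Hox gene, since fibroblasts of different body regions differ in Hox genes. Between 2003 cells with and 3756 without one, log2 ratios of the 9 members lay between -0.64 (Osr2, 4.19 and 6.55 CPM) and 0.33 (Osr1, 12.3 and 9.80 CPM). Twist2 was at 229 and 201 CPM and Prrx1 at 224 and 222 CPM, so both were high in either part of the fibroblast library.

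Beside the members, 24 other mesenchymal transcription factors were counted. In Pax7-positive cells 19 passed the level filter, with a median log2 ratio of -0.23 against -0.07 over all genes. Of these, 4 were at least 4-fold lower than in MEF, namely Tbx5, Msx2, Hand2 and Ebf2 (background 8.82%). Another 12 were at no less than 1/2 of the MEF level (background 78.9%), and among them 3 were at least 4-fold higher, namely Msx1, Nr2f1 and Runx1 (background 9.28%). Hand2, a factor of limb and heart mesenchyme, was at 11.5 CPM in MEF and 1.34 in Pax7-positive cells, and Nr2f1, a nuclear receptor, at 8.03 and 90.0 CPM. Runx1 was above MEF (27.8 CPM) in every iMPC group, at 133 CPM in Pax7-positive, 157 in Myog-high, 150.2 in Ckm-high and 152 in Dcn-high cells. Zeb1, the relative of Zeb2, was at 62.0 CPM in MEF and 96.1 in Pax7-positive, 141 in Myog-high, 66.3 in Ckm-high and 93.9 in Dcn-high cells. Scx, the tendon factor, was at 5.34 CPM in MEF, 1.66 in Pax7-positive and 25.9 in Ckm-high cells. The list thus held genes at both ends, as the members did.

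Of 12 mesenchymal effector genes 7 were at least 4-fold lower in Pax7-positive cells (background 8.82%), with a median of -2.21. These were Fn1, Cdh11, S100a4, Postn, Tnc, Col1a1 and Col1a2. In Myog-high cells 10 were that far below MEF (background 14.4%), and in Ckm-high cells 10 (background 19%). In Dcn-high cells 3 were, namely Tnc, Col1a1 and Col1a2 (background 4.94%). Col1a1, a chain of type I collagen, was at 2289 CPM in MEF and 45.0 in Pax7-positive cells, and Col3a1, of type III collagen, at 711 and 789 CPM. Vim, the intermediate filament vimentin, was at 3839 and 2325 CPM. The effector genes therefore stood lower than the members in the Pax7-positive cells, by medians of -2.21 and -0.01. Of 12 epithelial genes, which Snail, Zeb and Twist factors are known to repress, 2 passed the level filter in Pax7-positive cells. Krt18, a keratin of simple epithelia, was at 14.2 CPM in MEF and 0.0454 in Pax7-positive cells, and Krt19 at 2.88 and 0.363. The 2 parted in the other groups. Krt18 was at least 4-fold below MEF in Myog-high, Ckm-high and Dcn-high cells as well. Krt19 was at no less than 1/2 of the MEF level in Myog-high and Dcn-high cells and at least 4-fold higher in Ckm-high cells. Cdh1, epithelial cadherin, was at 0 CPM in MEF and 0.0454 in Pax7-positive cells. The floor of 3 counts is 0.0682 CPM in Pax7-positive cells, so no difference in Cdh1 can be read. The Pax7-positive value of Krt18 also lay under that floor.

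Among 10888 genes with at least 5 CPM in 1 of the 5 groups, the 3 genes with the profile most like a member's were found by Euclidean distance of centred log2(CPM + 1) over the 5 groups. For Twist2 these were Thbs2, Crabp1 and Ccl11. Thbs2, a matrix glycoprotein, was at 219 CPM in MEF, 12.9 in Pax7-positive, 2.58 in Myog-high, 3.27 in Ckm-high and 127 in Dcn-high cells. For Twist1 they were Igfbp7, S1pr2 and Rcn3, for Snai2 Zc3hav1, Anxa1 and Asap1, for Snai1 Traf5, Sash1 and Tlnrd1, and for Zeb2 Prrg1, Cp and Runx3. For Prrx1 they were Gm37524, Slc27a1 and Tfap2a, for Prrx2 Map3k11, Tubgcp2 and Rad51d, for Osr1 Plaur, Itpr2 and Sh3pxd2b, and for Osr2 Nbea, Rtn4rl1 and Abhd2. No gene was nearest to more than 1 member.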

How the data were processed

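Each library was given as a matrix of UMI counts with its gene and barcode lists. Per the labels' protocols, cells were prepared with the 10x Genomics 3′ kit v3 and sequenced on 1 NovaSeq flow cell. The deposited values are raw UMI counts per gene and barcode, which the authors made with the tools that the submitters' processing notes name, Cell Ranger 4.0 and Seurat 3.2.3, on GRCm38.p6. The notes give no role to each. The MEF matrix lists 6113 barcodes and the iMPC matrix 6794880. An iMPC barcode counted as a cell at 8036 UMIs or more (10% of the 99th percentile of the top 10000 barcodes), which left 9540. No UMI threshold was set for the MEF barcodes. Cells with over 20% mitochondrial UMIs were removed from both libraries (70 MEF barcodes). The MEF sample's treatment protocol repeats the iMPC text, and its own treatment label, MEF medium, was used. Doublets were not removed in the main values.

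UMIs of the 26100 shared genes were summed per group and divided by the group's total (CPM, with exact Poisson intervals). Genes in 1 list only held 0.209% of MEF UMIs. Ratios carry exact conditional intervals and shares exact Clopper-Pearson ones, at 95%. A gene at 0 was set to a floor of 3 counts for ratios. Shares of cells were taken after random thinning of each cell to 5000 UMIs. A background is the share that passed the same fold among all genes that reached 1 CPM in MEF or in the group. The ratios were tested on simulated data. Python 3.11.15, numpy 2.4.6, scipy 1.17.1, pandas 2.3.3 and scanpy 1.11.5 (for Scrublet) were used. The members, groups and lists were chosen with earlier results of these data known. The named genes are the 10 members, the 4 group genes, from each list the 3 genes with the highest and the 3 with the lowest ratio of Pax7-positive cells to MEF among those at 5 CPM or more, genes that a small count covers, and the 3 nearest profiles. Zeb1 and Cdh1 were named after their values were seen. Alternatives varied the cell threshold, the mitochondrial limit, the scaling, free RNA, doublets, group overlap and thresholds, and depth. Another 2, leaving out cells that hold Dcn from the myogenic groups and cells that hold Pax7 or Myog from the Dcn-high group, were added after the data were seen. Of the gene IDs, 25989 were found in the GENCODE annotation used for positions, and promoters came from RefSeq. With 1 library per group there is no estimate of the spread between cultures.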

Additional observations from a re-analysis of the deposited data

Results flagged for a closer look

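Barcodes of the iMPC library below the cell threshold were outside the comparisons, and 9 of the 10 members had UMIs in them. Each is listed with its CPM in barcodes of 1 to 100 UMIs and then in barcodes of 200 to 600 UMIs. Twist1 was at 29.2 and 12.7 CPM and Twist2 at 29.9 and 7.10 CPM. Prrx1 was at 158.9 and 114 CPM and Prrx2 at 78.8 and 50.8 CPM. Osr1 was at 7.19 and 4.05 CPM and Osr2 at 1.48 and 1.13 CPM. Snai1 was at 19.2 and 12.2 CPM, Snai2 at 23.1 and 12.3 CPM and Zeb2 at 96.2 and 56.8 CPM. All 9 were higher in the barcodes with fewer UMIs. Tcf21 had 0 UMIs in both.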

How the results depend on the processing

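The count of members at least 4-fold below MEF did not move under any of the 12 alternatives in any of the 4 groups. The count at no less than 1/2 of the MEF level ranged from 6 to 7 in Pax7-positive, 3 to 5 in Myog-high, 2 to 3 in Ckm-high and 8 to 9 in Dcn-high cells. The members that crossed were Osr2 in Pax7-positive cells, Osr1 or Prrx1 in Myog-high, Prrx1 in Ckm-high and Snai2 in Dcn-high cells. Scaling by the median of gene ratios moved all log2 ratios by 0.07, 0.10, 0.30 and 0.11 in the same order of groups. Of the ratios of single members, 270 stayed within their counting intervals and 162 moved beyond them. Signs turned only for small ratios, those of Twist1, Prrx2 and Snai1 in Pax7-positive and of Snai1 in Myog-high cells. Twist2 in Pax7-positive cells ranged from -6.49, without the cells that hold Dcn, to -4.00. In Myog-high and Ckm-high cells its log2 ratio was -6.68 and -6.63, and -7.70 and -8.44 without the 18 Dcn-high cells of each. Subtracting free RNA of the smallest barcodes at the assumed 10% took away more than the whole Twist2 value of both groups. The bounds of -11.57 and -11.65, at the floor of 3 counts, therefore come from that share. Free RNA was subtracted from the iMPC groups only and not from MEF, so such ratios are corrected on the iMPC side alone. Shares of cells with a UMI moved with the depth chosen in 173 of 180 values. With genes of at least 10 CPM as background, 6.89% of all genes were at least 4-fold lower in Pax7-positive, 12.1% in Myog-high, 16.5% in Ckm-high and 3.55% in Dcn-high cells. Scrublet marked 337 iMPC cells and 1 MEF cell, too few in MEF to have worked, so the 344 MEF cells with the highest scores were left out there. No paired analysis was possible because each condition is 1 library.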
